A study of Homo sapiens with 20 samples.

Results

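The 10 genes described here encode inhibitors of cyclin-dependent kinases (CDKs) and the cyclins of the G1 phase of the cell cycle. They were selected by gene symbol from the 60271 genes of the count table. No measured value entered that rule, but the 10 genes were chosen with earlier results of these data known. Of the 6 inhibitor genes, 3 belong to the CIP/KIP family: CDKN1A, CDKN1B and CDKN1C, which encode p21, p27 and p57. The other 3, CDKN2A, CDKN2B and CDKN2D, belong to the INK4 family and encode p16 (with ARF from a second reading frame), p15 and p19. The 4 cyclin genes are CCND1 and CCND3 (cyclins D1 and D3) and CCNE1 and CCNE2 (cyclins E1 and E2). All 10 passed the filter on low counts that left 16522 genes for testing, and no member fell under 44 counts in any of the 20 libraries.

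The cells were MDA-MB-468, an epithelial line from a triple-negative breast cancer that expresses a very high level of the receptor for epidermal growth factor (EGF). Bulk mRNA was sequenced from 5 groups of 4 biological replicates each: an untreated control (CTR), and cells given EGF at 50 ng/mL, a treatment that induces epithelial-mesenchymal transition, for 12, 24, 48 or 72 h. Every group came from the same unmodified line. The study's methods give 24 h of serum starvation before EGF. By the labels, seeding and collection were shared by all groups, and the start of EGF differed. The time without serum before EGF could then have differed between the groups, and its part in the results was not tested. The comparisons ask how these cell cycle regulators differ from the control at each time, and how they move between the times. All 4 comparisons with the control use the same 4 control libraries, and the cells were 1 line, so the replicates measure the spread between cultures of that line.

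In the textbook account, D-type cyclins bind CDK4 and CDK6, and E-type cyclins bind CDK2, and these kinases phosphorylate the retinoblastoma protein so that E2F factors can switch on the genes of DNA replication. INK4 proteins bind CDK4 and CDK6 themselves, whereas CIP/KIP proteins bind cyclin-CDK complexes, block CDK2 and can also help cyclin D and CDK4 to assemble. Growth factor signalling through the MAP kinase cascade is known to raise CCND1, and in cells with very many EGF receptors EGF is known to raise p21 and slow growth. MDA-MB-468 is known to lack functional retinoblastoma protein.

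The promoters of 4 of the genes are shown first, as the start regions of genes that moved in opposite directions: CDKN1A and CCNE1 rose at every EGF time, CDKN1B fell at every time and CDKN2B fell at 12 and 24 h. The 250 bases before the RefSeq transcription start on GRCh38.p14 are written 5′ to 3′ on the strand of the gene. They span chr6:36678464-36678713 (+ strand) for CDKN1A, chr19:29811741-29811990 (+ strand) for CCNE1, chr12:12717118-12717367 (+ strand) for CDKN1B and chr9:22009306-22009555 (− strand) for CDKN2B. Capitals mark the GC box GGGCGG and the E2F core TCCCGC on either strand, and neighbouring matches may share bases.
CDKN1A: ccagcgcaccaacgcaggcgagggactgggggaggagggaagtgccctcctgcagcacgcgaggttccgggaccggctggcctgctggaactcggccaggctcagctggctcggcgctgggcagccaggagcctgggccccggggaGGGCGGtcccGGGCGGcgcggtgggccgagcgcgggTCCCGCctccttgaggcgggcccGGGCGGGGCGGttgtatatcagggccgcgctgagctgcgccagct
CCNE1: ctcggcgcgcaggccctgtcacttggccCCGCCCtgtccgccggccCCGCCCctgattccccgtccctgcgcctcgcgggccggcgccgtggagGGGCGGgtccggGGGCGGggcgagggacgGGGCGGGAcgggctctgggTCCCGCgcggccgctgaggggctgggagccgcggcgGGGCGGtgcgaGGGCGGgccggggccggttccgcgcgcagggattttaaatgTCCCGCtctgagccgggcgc
CDKN1B: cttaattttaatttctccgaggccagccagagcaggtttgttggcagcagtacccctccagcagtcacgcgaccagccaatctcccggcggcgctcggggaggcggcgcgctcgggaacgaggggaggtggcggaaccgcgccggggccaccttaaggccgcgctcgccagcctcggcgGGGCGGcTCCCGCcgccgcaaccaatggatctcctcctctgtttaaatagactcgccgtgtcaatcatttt
CDKN2B: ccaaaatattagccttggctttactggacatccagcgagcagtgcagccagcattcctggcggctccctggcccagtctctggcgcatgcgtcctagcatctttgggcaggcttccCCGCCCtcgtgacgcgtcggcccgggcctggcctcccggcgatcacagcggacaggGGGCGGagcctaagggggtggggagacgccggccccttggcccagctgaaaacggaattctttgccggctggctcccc

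The CCNE1 window held 7 GC boxes and 3 E2F cores, 1 of which overlapped a GC box, and the CDKN1A window held 4 GC boxes and 1 E2F core. CDKN1B had 1 of each motif, and CDKN2B had 2 GC boxes and no match to the E2F core. CDKN1B also held 2 CCAAT boxes (letters CCAAT), which 32.0% of all windows held and which were absent from the other 3 windows shown. No gene among the windows not shown was called lower than the control in the main test. Whether the motifs follow direction therefore cannot be read from these windows. The window of CDKN2D, which rose at 12 h, held 2 GC boxes, 0 E2F cores and 1 CCAAT box. CCND3, which rose at every time, had 5, 2 and 0 GC boxes at its starts 1, 2 and 3. Its starts 2 and 3 held 1 CCAAT box each. CDKN2A had 0 and 1 GC boxes at its starts 1 and 2, and 0 CCAAT boxes. Among 34788 windows of the same length before RefSeq starts, 42.6% held a GC box, 7.61% held at least 4 and 23.4% held an E2F core. The CCNE1 window was 81.2% G and C and the CDKN1A window 76.4%, against a mean of 57.2% over all windows. Neither the AP-1 letters TGANTCA, the E box CACGTG nor the TATA box TATAAA occurred in the windows of the 7 members searched, while 6.59%, 6.31% and 10.8% of all windows held them. With so few windows that absence is not read as a result. CCND1, CDKN1C and CCNE2 were not searched. These matches describe letters and not binding.

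The libraries held 15611961 to 25856953 counts. The share of counts from mitochondrially encoded genes averaged 10.9% in the control and 9.41%, 12.4%, 12.5% and 15% at 12, 24, 48 and 72 h, and its part in the results was not tested. All 7 epithelial markers were expressed in every library (66829 to 248827 counts for EGFR). Their sum, as CPM of the unscaled library total, moved with the groups. It was 5264 to 5900 in the control, 16323 to 17698 at 12 h and 10630.5 to 12948 at 24 h. At 48 h it was 7632 to 8626 and at 72 h 8150 to 8946. Markers of other cell types, summed in the same way, were low and also moved with the groups. The fibroblast list summed to 5.42 to 8.49 CPM in the control libraries, 7.75 to 9.34 at 12 h and 13.2 to 15.5 at 72 h, of which COL1A1 gave 104 to 383 counts a library while COL1A2 and COL3A1 had at most 1. The leukocyte list summed to 2.93 to 4.2 CPM in the control, 1.31 to 1.66 at 12 h and 6.27 to 8.76 at 48 h, with CD14 at 18 to 137 counts and PTPRC at most 8, and the endothelial list to 1.9 to 3.53, 0.426 to 0.653 and 3.81 to 5.89 CPM, with PECAM1 at 4 to 114 counts and CDH5 at most 3. Their part in the results was not tested. EGF moved a large part of the transcriptome: the shares of tested genes that differed from the control at 12, 24, 48 and 72 h were 69.4%, 58.8%, 45.8% and 61.6% at an adjusted p of 0.05 (edgeR's quasi-likelihood test, Benjamini-Hochberg adjustment over all genes tested). Against that background, 9 of the 10 members differed from the control after 12 h, 8 after 24 h, 4 after 48 h and 7 after 72 h. Beyond 1.5-fold the members numbered 6, 5, 2 and 5 at these times, where 46.6%, 33.7%, 22% and 35.8% of all tested genes went that far. At 12, 24, 48 and 72 h, 8, 6, 3 and 6 members had no overlap between the EGF and the control libraries, as had 60.8%, 48.2%, 34.9% and 52% of all tested genes. The median log2 fold change of the members was 0.57, 0.56, 0.063 and 0.62 at the 4 times, with medians of -0.054, -0.0071, 0.0099 and -0.0090 over all tested genes. Levels are given as CPM, the counts of a gene scaled to a common library size after TMM normalization, errors of fold changes are standard errors on the log2 scale, and in bulk RNA fewer cells of a kind and less RNA per cell cannot be told apart.

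**Figure D1:**
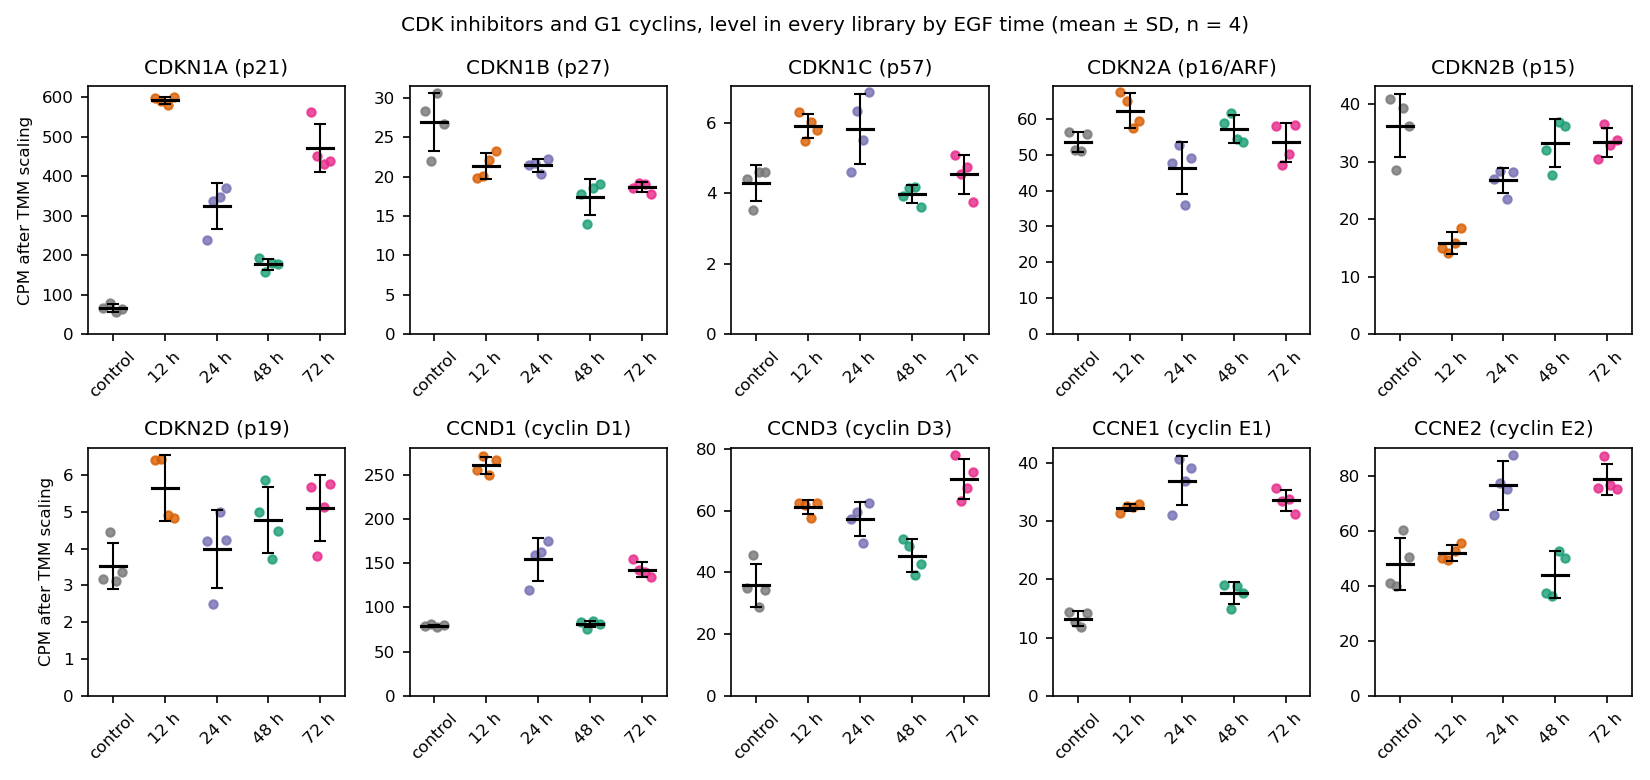
CPM of each of the 10 genes (vertical axes, linear from 0, each gene on its own scale) in every library of the control and the 4 EGF times. Points are libraries, black bars are the mean ± SD of 4. CDKN1A, CCND1 and CCNE1 are high at 12 h, lower at 48 h and high again at 72 h, and CDKN2B is lowest at 12 h.

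CDKN1A (ENSG00000124762, chr6:36676460-36687339, + strand, by GENCODE 29 on GRCh38, as for all genes here), which encodes the p21 inhibitor, had the largest change among the 10 genes. Its level in the 4 control libraries was 66.3, 80.3, 57.7 and 63.9 CPM. At 12 h of EGF it was 598, 591, 581 and 600.0 CPM. The 4 libraries at 12 h lay within a narrow band, all far above the highest control library. The libraries at 24 h held 239.6, 337, 347 and 371 CPM. Those at 48 h held 193, 159, 181 and 178 CPM. By 72 h the gene was back at 562, 452, 431 and 439 CPM. No 2 of the 5 groups overlapped, and EGF 24 h replicate 1 was low in its group while EGF 72 h replicate 1 was high. The log2 fold changes against the control were 3.14 ± 0.12 at 12 h (adjusted p = 3.74e-16), 2.27 ± 0.12 at 24 h (adjusted p = 1.03e-13), 1.40 ± 0.12 at 48 h (adjusted p = 8.12e-10) and 2.81 ± 0.12 at 72 h (adjusted p = 2.23e-15). On a linear scale the level was 8.84, 4.83, 2.65 and 7.02 times that of the control in the order of the times. The order of the levels was therefore 12, 72, 24 and 48 h and then the control, and each neighbour in that order differed from the next. The smallest of these steps was 72 h against 12 h, with a log2 difference of -0.33 ± 0.11 and an adjusted p of 0.0116. That last difference was no longer past the threshold when libraries were scaled by their size alone (-0.12, adjusted p = 0.32), by upper quartiles (-0.19) or with genes of at least 10 counts in every library only. An antisense RNA, DINOL, shares 4.79% of the exon bases of CDKN1A, and the sources used here do not state whether counting used strand.

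CDKN1B (ENSG00000111276, chr12:12715058-12722371, + strand) encodes p27, the inhibitor that is abundant in resting cells and is removed when cells enter the cycle. The control libraries held 28.3, 22, 30.6 and 26.7 CPM. At 12 h they were 19.9, 20.1, 22.1 and 23.2 CPM and at 24 h 21.5, 21.8, 20.3 and 22.3 CPM. These levels overlapped the control through control replicate 2, the lowest of its group. At 48 h the levels were 17.8, 14, 18.5 and 19 CPM and at 72 h 18.5, 19.2, 19 and 17.8 CPM, and all 8 of these libraries lay under every control library. CDKN1B fell at every time, by 0.33 ± 0.097 at 12 h (adjusted p = 0.00388), by 0.33 ± 0.097 at 24 h (adjusted p = 0.00597), by 0.63 ± 0.097 at 48 h (adjusted p = 1.16e-05) and by 0.53 ± 0.098 at 72 h (adjusted p = 5.56e-05) on the log2 scale. Only 48 h passed 1.5-fold, at 1.55-fold lower. Opposite directions of CDKN1A and CDKN1B within one family were thus seen at each EGF time. The authors' normalized values imply a scaling factor for each gene in each library, and with these factors in place of TMM the fall of CDKN1B kept its direction but was called at 48 h alone (-0.46, adjusted p = 0.0189), against -0.11 at 12 h (adjusted p = 0.523), -0.29 at 24 h (adjusted p = 0.107) and -0.30 at 72 h (adjusted p = 0.0889). Among the EGF times, CDKN1B was lower at 48 h than at 24 h (-0.30 ± 0.099, adjusted p = 0.0131), a call lost without EGF 48 h replicate 2 (-0.22, adjusted p = 0.0625), under scaling by library size alone (-0.15) and with factors per gene (-0.17). Its other neighbours in order, 24 and 12 h, 12 and 72 h, and 72 and 48 h, did not pass the adjusted test, with unadjusted 95% intervals of the log2 difference of -0.18 to 0.20, -0.39 to -0.0016 and -0.094 to 0.30. For 72 against 12 h the unadjusted p of edgeR's quasi-likelihood test was 0.0602, although the interval left out 0.

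CDKN1C (ENSG00000129757, chr11:2883213-2885773, − strand) encodes p57, an imprinted member of the family that was scarce here, at 59 to 141 counts a library. The control held 4.42, 3.53, 4.61 and 4.61 CPM, against 6.31, 5.5, 6.02 and 5.79 at 12 h and 4.6, 6.33, 5.51 and 6.88 at 24 h. All libraries at 12 h were above the control, and at 24 h all but replicate 1 were. At 48 h the levels were 3.93, 4.16, 4.18 and 3.63 CPM and at 72 h 5.09, 4.55, 4.75 and 3.77 CPM, both overlapping the control. CDKN1C rose at 12 h (0.46 ± 0.13, adjusted p = 0.00329) and at 24 h (0.44 ± 0.13, adjusted p = 0.00588). At 48 h the difference was -0.11 (95% interval -0.37 to 0.15) and at 72 h 0.090 (-0.17 to 0.35), neither past the test. CDKN1C fell from 24 to 48 h (-0.55 ± 0.13, adjusted p = 0.00136). It was also higher at 24 h than at 72 h (adjusted p = 0.0362), but not without EGF 24 h replicate 2 or 4 or EGF 72 h replicate 2, 3 or 4 (adjusted p = 0.0952, 0.153, 0.0638, 0.0506 and 0.123). That call was also lost under scaling by library size alone (adjusted p = 0.0897), with no filter (adjusted p = 0.098), with at least 10 counts in every library (adjusted p = 0.0677), with factors per gene (adjusted p = 0.0852), with the 8 libraries fitted alone (adjusted p = 0.0579) and by DESeq2's Wald test (adjusted p = 0.0785). Both rises against the control were lost under scaling by library size alone (0.18 at 12 h, adjusted p = 0.226, and 0.30 at 24 h, adjusted p = 0.0505), and with factors per gene the rise at 24 h was lost (0.38, adjusted p = 0.053).

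Among the INK4 members, CDKN2B fell at 12 and 24 h, CDKN2D rose at 12 and 72 h and CDKN2A rose at 12 h alone. CDKN2C, the INK4 gene outside the member list, fell at every time and is given further on. CDKN2B (ENSG00000147883, chr9:22002903-22009363, − strand) encodes p15, an inhibitor known to be induced by TGF-beta and repressed by MYC. Control libraries held 40.9, 28.5, 39.4 and 36.2 CPM of it. The 4 libraries at 12 h held 15.1, 14.2, 16 and 18.5 CPM, all well under the lowest control. At 24 h the levels were 27, 28.4, 23.6 and 28.2 CPM, still under every control library, but by less. At 48 h they were 32.1, 27.8, 36.8 and 36.2 CPM and at 72 h 30.4, 36.5, 33 and 33.7 CPM, overlapping the control. CDKN2B fell 2.28-fold at 12 h (-1.19 ± 0.11, adjusted p = 1.81e-09) and 1.35-fold at 24 h (-0.44 ± 0.11, adjusted p = 0.00144). The later differences of -0.12 at 48 h (95% interval -0.33 to 0.087) and -0.12 at 72 h (-0.33 to 0.092) did not pass. From 12 to 24 h the gene rose by 0.75 ± 0.11 (adjusted p = 7.6e-06) and from 24 to 48 h by 0.31 ± 0.11 (adjusted p = 0.0203), and the control, 72 h and 48 h could not be ordered. The second of these steps lost its call without EGF 24 h replicate 3, EGF 48 h replicate 3 or EGF 48 h replicate 4 (adjusted p = 0.0802, 0.0713 and 0.0668). The factor implied for CDKN2B by the authors' normalized values was 1.46 times that of the control at 12 h. With it the fall at 12 h was -0.57 (adjusted p = 0.0273), the fall at 24 h was -0.49 (adjusted p = 0.0619), and the step between 12 and 24 h was 0.080 (adjusted p = 0.79). The fall at 12 h thus kept its direction and call at less than the TMM size, and the recovery by 24 h was not called.

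CDKN2A (ENSG00000147889, chr9:21967753-21995301, − strand) yields p16 and, from another first exon, ARF, and the counts per gene cannot separate them. Control libraries held 56.3, 51.3, 50.9 and 55.7 CPM. At 12 h they held 67.5, 65, 57.3 and 59.2 CPM, above the control without overlap. At 24 h the levels were 47.7, 52.6, 36 and 49 CPM, at 48 h 58.8, 61.6, 54.4 and 53.6 CPM and at 72 h 57.9, 47.2, 50.1 and 58.1 CPM. These 3 groups overlapped the control, and EGF 24 h replicate 3 was the lowest of the 20 libraries. A rise at 12 h just passed the threshold (0.22 ± 0.094, adjusted p = 0.045). It was lost without any of 4 single libraries (control replicates 2 and 3, EGF 12 h replicates 1 and 2, adjusted p from 0.0827 to 0.126) and with factors per gene (adjusted p = 0.113), and it turned to -0.068 under scaling by library size alone. At 24, 48 and 72 h the differences from the control did not pass the adjusted test, with unadjusted 95% intervals of -0.39 to -0.021, -0.093 to 0.28 and -0.19 to 0.18. The difference at 24 h, -0.21, passed without EGF 24 h replicate 2 (-0.27, adjusted p = 0.027) and under scaling by library size alone (-0.35) or upper quartiles (-0.25). CDKN2A fell between 12 and 24 h (-0.43 ± 0.095, adjusted p = 6.51e-04). It rose between 24 and 48 h (0.30 ± 0.095, adjusted p = 0.0113), a step not called without EGF 24 h replicate 3 (0.20, adjusted p = 0.0638). The antisense gene CDKN2B-AS1 shares 7.88% of the CDKN2A exon bases.

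CDKN2D (ENSG00000129355, chr19:10566462-10569059, − strand), which encodes p19, was also scarce, at 44 to 147 counts a library. The control held 3.16, 4.46, 3.12 and 3.36 CPM. At 12 h the levels were 6.42, 6.43, 4.92 and 4.83 CPM, and at 24 h 4.2, 2.49, 5.0 and 4.25 CPM. The 12 h libraries lay above all control libraries, whereas those at 24 h lay on both sides. The gene was at 4.99, 5.87, 3.72 and 4.49 CPM at 48 h and 5.67, 3.81, 5.14 and 5.75 CPM at 72 h. CDKN2D rose at 12 h (0.67 ± 0.19, adjusted p = 0.00284) and at 72 h (0.53 ± 0.19, adjusted p = 0.0189). Differences of 0.17 at 24 h (95% interval -0.21 to 0.55) and 0.42 at 48 h (0.054 to 0.80) did not pass the adjusted test, although the second did without control replicate 2 (0.56, adjusted p = 0.0226) or EGF 48 h replicate 3 (0.53, adjusted p = 0.031). The rise at 72 h was lost without control replicate 1, EGF 72 h replicate 1 or EGF 72 h replicate 4 (adjusted p = 0.0529, 0.0585 and 0.0533) and with factors per gene (adjusted p = 0.0634). That at 12 h was lost under scaling by library size alone (0.39, adjusted p = 0.0656). CDKN2D fell from 12 to 24 h (-0.50 ± 0.19, adjusted p = 0.028), a call lost without EGF 12 h replicate 1 or 2 or EGF 24 h replicate 2 (adjusted p = 0.0836, 0.0814 and 0.122) and under scaling by library size alone or upper quartiles. No neighbours in the order 12, 72, 48 and 24 h and control differed beyond their spread.

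**Figure D2:**
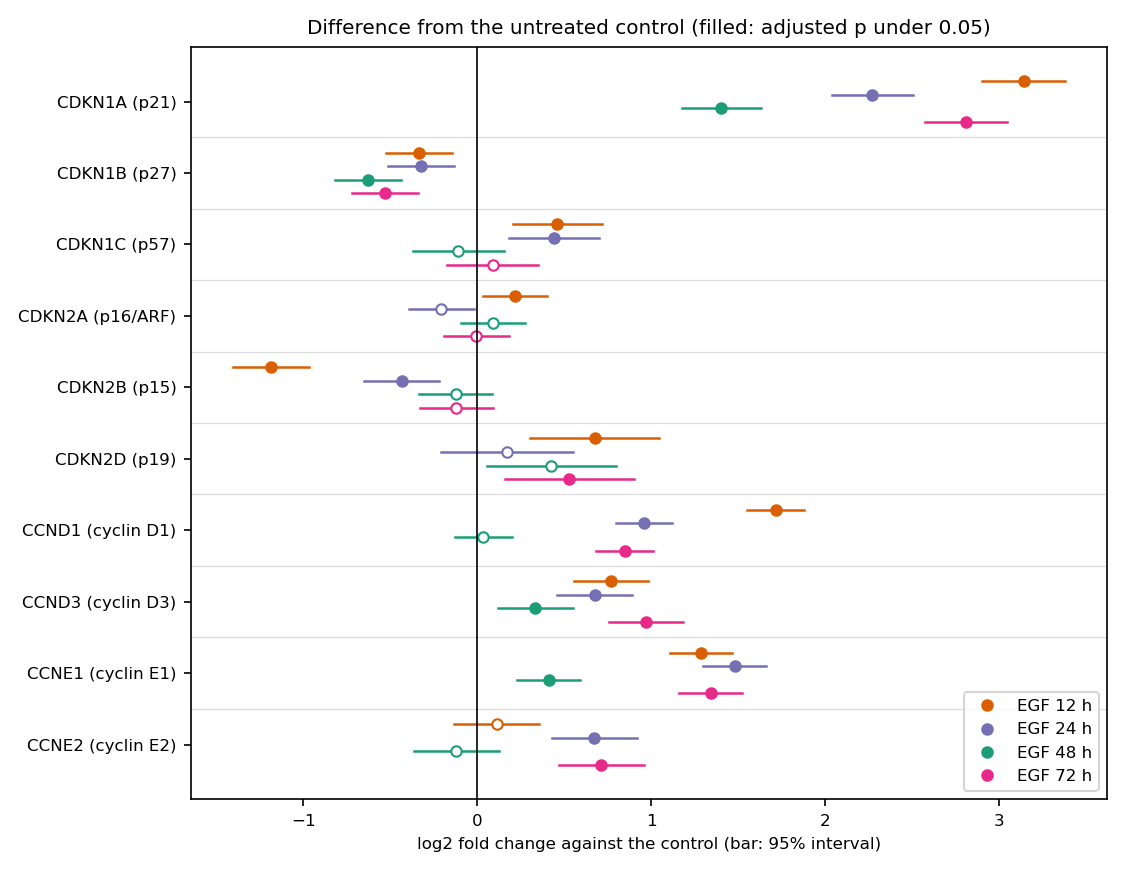
Log2 fold change of each gene against the control for the 4 EGF times (horizontal axis), with the 95% interval as a bar. Filled points passed an adjusted p of 0.05 and open points did not. CDKN1A lies between 1.40 and 3.14 and CDKN1B between -0.63 and -0.33, while the CCND1 point at 48 h is open at 0.035.

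CCND1 (ENSG00000110092, chr11:69641087-69654474, + strand) encodes cyclin D1, the cyclin that growth factors are best known to raise. Its control libraries lay close together at 79.2, 80.8, 78 and 79.7 CPM. At 12 h they held 256, 271, 249.8 and 267 CPM, and at 24 h 119.7, 159.7, 163 and 175 CPM. Every library of both times stood above every control library, and EGF 24 h replicate 1 was the lowest of its group for this gene, as it was for CDKN1A and CCNE1. At 48 h the levels were 83, 76.1, 84.6 and 81.8 CPM, on both sides of the control values. At 72 h they were 155, 142, 139.9 and 134 CPM, again clear of the control. CCND1 rose 3.28-fold at 12 h (1.72 ± 0.084, adjusted p = 1.37e-14), 1.94-fold at 24 h (0.96 ± 0.083, adjusted p = 6.78e-10) and 1.8-fold at 72 h (0.85 ± 0.083, adjusted p = 4.9e-09). At 48 h the log2 difference was 0.035, with a 95% interval of -0.13 to 0.20 and an adjusted p of 0.76. The successive steps were -0.76 ± 0.082 from 12 to 24 h (adjusted p = 7.04e-08), -0.92 ± 0.083 from 24 to 48 h (adjusted p = 4.14e-09) and 0.81 ± 0.083 from 48 to 72 h (adjusted p = 5.88e-08). Levels at 24 and 72 h did not differ beyond their spread (interval -0.27 to 0.049), but without EGF 24 h replicate 1 the 72 h group was lower (-0.22, adjusted p = 0.00748). The factors per gene raised CCND1 relative to the control by 1.38 times at 12 h and 1.28 times at 48 h, giving 2.13 and 0.32 (adjusted p = 0.173 at 48 h). The opposite-strand gene LTO1 shares 10.3% of the exon bases of CCND1.

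CCND3 (ENSG00000112576, chr6:41934933-42050357, − strand) encodes cyclin D3, and its group mean was above the control at all times. Control levels were 35, 45.5, 28.8 and 34.3 CPM. EGF libraries held 62.3, 61.9, 57.7 and 62.6 CPM at 12 h and 57.2, 59.6, 49.6 and 62.5 CPM at 24 h. None of these 8 overlapped the control, whose highest library was replicate 2. At 48 h the gene stood at 50.9, 48.4, 39.2 and 42.8 CPM, overlapping the control, and at 72 h at 78, 63.1, 67.3 and 72.4 CPM, its highest group. The rises were 0.77 ± 0.11 at 12 h (adjusted p = 1.19e-06), 0.67 ± 0.11 at 24 h (adjusted p = 1.17e-05), 0.33 ± 0.11 at 48 h (adjusted p = 0.0148) and 0.97 ± 0.11 at 72 h (adjusted p = 4.81e-08). The call at 48 h was lost without control replicate 3 (0.24, adjusted p = 0.0665) or EGF 48 h replicate 1 (0.28, adjusted p = 0.0598), with factors per gene (0.27, adjusted p = 0.16), and with the 8 libraries of the comparison fitted alone (adjusted p = 0.0775). CCND3 fell from 24 to 48 h (-0.34 ± 0.11, adjusted p = 0.0117) and rose from 48 to 72 h (0.63 ± 0.11, adjusted p = 6.62e-05). The fall from 24 to 48 h was not called under scaling by library size alone (-0.19), by upper quartiles (-0.27) or with factors per gene (-0.35). In the order 72, 12, 24 and 48 h, the neighbours 72 and 12 h and 12 and 24 h did not differ beyond their spread. The first of these pairs was called under scaling by library size alone (0.41) and by upper quartiles (0.34).

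CCNE1 (ENSG00000105173, chr19:29811898-29824308, + strand) encodes cyclin E1, the partner of CDK2 at the start of DNA replication. It was 14.4, 12.7, 11.8 and 14.2 CPM in the control. It was 31.4, 32.6, 32.4 and 32.9 CPM at 12 h and 31.1, 40.7, 36.9 and 39.2 CPM at 24 h. The level was thus 2.44-fold and 2.79-fold that of the control, and no library overlapped it. At 48 h CCNE1 was 19.1, 14.9, 18.8 and 17.7 CPM, which left a small gap above the highest control library. At 72 h it was 35.8, 33.6, 33.8 and 31.2 CPM. The log2 fold changes were 1.29 ± 0.092 at 12 h (adjusted p = 1.3e-11), 1.48 ± 0.092 at 24 h (adjusted p = 1.63e-12), 0.41 ± 0.093 at 48 h (adjusted p = 9.31e-04) and 1.34 ± 0.092 at 72 h (adjusted p = 8.3e-12). Unlike CDKN1A and CCND1, CCNE1 was not lower at 24 h than at 12 h (0.19 ± 0.088, adjusted p = 0.0677). It fell 2.1-fold from 24 to 48 h (adjusted p = 1.59e-09) and rose 1.91-fold from 48 to 72 h (adjusted p = 2.58e-08). The groups at 24, 72 and 12 h could not be ordered, with intervals of -0.31 to 0.034 for 72 against 24 h and -0.12 to 0.23 for 72 against 12 h. Without EGF 24 h replicate 1 the 72 h group was lower than the 24 h group (-0.22, adjusted p = 0.0483), and under scaling by library size alone it was higher than the 12 h group (0.26). The 24 h group was called higher than the 12 h group under scaling by library size alone (0.33, adjusted p = 0.00354) or upper quartiles (0.31, adjusted p = 0.0040), with at least 10 counts in every library (adjusted p = 0.0249), with the 8 libraries fitted alone (adjusted p = 0.0153) and without EGF 24 h replicate 1 (0.27, adjusted p = 0.0126).

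CCNE2 (ENSG00000175305, chr8:94879770-94896678, − strand), the gene of cyclin E2, was not raised at 12 h, when CCNE1 was, and rose by 24 h. The control held 41.3, 40.1, 60.5 and 50.7 CPM and the 12 h group 50.1, 49.4, 52.8 and 55.9 CPM, which lay inside the control range. At 24 h CCNE2 was 66, 77.7, 75.6 and 88 CPM, above every control library. At 48 h it was 37.5, 36.4, 52.8 and 50.1 CPM, overlapping the control, and at 72 h 75.8, 87.4, 77 and 75.5 CPM. CCNE2 rose at 24 h (0.67 ± 0.12, adjusted p = 6.75e-05) and at 72 h (0.71 ± 0.12, adjusted p = 3.17e-05). At 12 h the difference was 0.11 (95% interval -0.13 to 0.36) and at 48 h -0.12 (-0.37 to 0.13), and neither passed. With factors per gene the difference at 12 h was 0.47 and passed (adjusted p = 0.00347), whereas it was -0.17 under scaling by library size alone. Its steps were 0.56 ± 0.12 from 12 to 24 h (adjusted p = 6.15e-04), -0.79 ± 0.13 from 24 to 48 h (adjusted p = 1.6e-05) and 0.83 ± 0.13 from 48 to 72 h (adjusted p = 1.56e-05). In the order 72, 24 and 12 h, control and 48 h, only 24 and 12 h differed as neighbours. Of the CCNE2 exon bases, 37.0% are shared with INTS8 on the opposite strand, so reads of the 2 genes could not be told apart there if counting ignored strand.

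**Figure D3:**
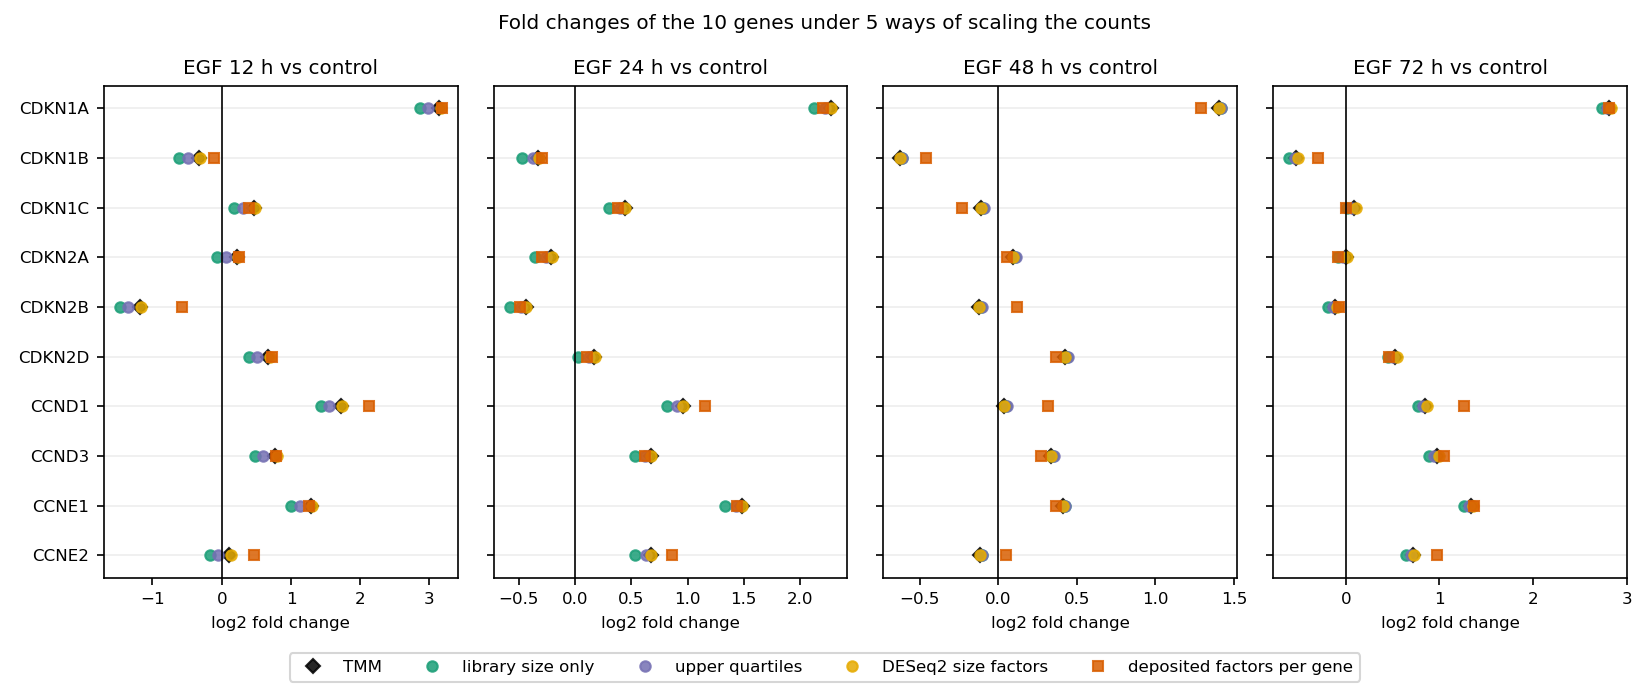
Log2 fold changes of the 10 genes against the control (horizontal axes) at 12, 24, 48 and 72 h under TMM scaling and 4 other scalings. CCND1, CDKN2B and CCNE2 at 12 h are furthest from the TMM value with the deposited factors per gene, at 2.13, -0.57 and 0.47, while CDKN1A stays between 2.86 and 3.17.

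Between successive times, most members called at an adjusted p of 0.05 moved down from 24 to 48 h, and all of those called moved up from 48 to 72 h. In the step from 12 to 24 h, 6 of the 10 differed (53.7% of all tested genes did), 4 lower and 2 higher (25.9% and 27.9%). From 24 to 48 h, 9 of 10 differed (50.2% of all tested genes did). Of these, 7 were lower (24.3% of all tested genes were): CDKN1A, CDKN1B, CDKN1C and the 4 cyclins. CDKN2A and CDKN2B were the 2 that rose (25.9% of all tested genes did). In the step from 48 to 72 h, 5 of 10 differed (35.7% of all tested genes did). All 5 were higher (17.9% of all tested genes were): CDKN1A, CCND1, CCND3, CCNE1 and CCNE2. Beyond 1.5-fold, 3, 4 and 5 members were called in the 3 steps (27.1%, 23.8% and 14.8% of all tested genes were), so the step with the most calls depended on the rule. Set against the mean of 24 and 72 h, 6 members were lower at 48 h (21.8% of all tested genes were): CDKN1A, CDKN1C and the 4 cyclins. The log2 difference was -1.14 ± 0.10 for CDKN1A (adjusted p = 7.07e-09), -1.0 ± 0.081 for CCNE1 (adjusted p = 9.58e-10), -0.87 ± 0.074 for CCND1 (adjusted p = 2.45e-09) and -0.81 ± 0.11 for CCNE2 (adjusted p = 3.2e-06). For these 4 genes the 48 h libraries lay under every library of both neighbouring times. CCND3 at -0.49 ± 0.095 (adjusted p = 2.14e-04) and CDKN1C at -0.38 ± 0.12 (adjusted p = 0.0112) were lower by less, and the call for CDKN1C was lost under scaling by library size alone. These steps share libraries with each other and with the comparisons above.

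Levels of different genes were compared per length, as CPM divided by the kilobases of merged exons in GENCODE 29. In the control CDKN1A was highest at 22 CPM per kb, followed by CCND1 at 16.4, CDKN2A at 12.4 and CCNE2 at 10.9. GENCODE 29 gives these genes from 2 merged exons (CDKN1C, CDKN2B and CDKN2D) to 15 (CCNE2), and all counts are summed over the gene. CDKN2D at 2.35 and CDKN1C at 1.73 CPM per kb were the lowest. CDKN1A made up 23% of the summed level of the 10 genes in the control and 61.6%, 50.6%, 44% and 59.5% at 12, 24, 48 and 72 h. Lengths matter for some of these ranks, since CDKN2A in the control was 41.8 CPM per kb by its longest coding transcript, above the 29.6 of CDKN1A on that length. Ratios were taken within a library, so a scaling factor per library cancels from them, whereas the factors per gene do not, and ratios of the deposited normalized values, added after the data were seen, are given beside some of them. CDKN1A over CDKN1B, the ratio of p21 to p27 messages, was 2.37 ± 0.695 in the control (SD, n = 4) and 25.7 ± 2.03, 13.9 ± 2.5, 9.49 ± 0.832 and 23.3 ± 3.2 in the order of the EGF times. Every EGF library had a higher ratio than every control library, the range at 48 h being 8.61 to 10.4 against 1.73 to 3.36 in the control. CCNE1 over CDKN1B ranged from 0.425 to 0.635 in the control and was higher in every EGF library, from 1.02 to 1.18 at 48 h and 1.93 to 2.13 at 72 h. For the E cyclins, CCNE2 over CCNE1 was 2.13 ± 0.581 in the control and 0.932 ± 0.0443 at 12 h, and no EGF library reached the lowest control ratio, by a small gap at 48 h (1.14 to 1.64 against 1.66 to 2.97 in the control). With factors per gene that separation was lost at every time: the control ran from 1.13 to 2.49, and the EGF groups from 0.945 to 1.16 at 12 h, 1.08 to 1.4 at 24 h, 1.34 to 1.57 at 48 h and 1.17 to 1.64 at 72 h. For the D cyclins, CCND1 over CCND3 went from 2.73 ± 0.461 in the control to 5.13 ± 0.145 at 12 h and was 2.45 ± 0.203 at 72 h, inside the control range, while with factors per gene the 72 h group ran from 2.14 to 3.63 against 1.65 to 2.86 in the control. CDKN2A over CDKN2B, whose genes are neighbours on chromosome 9, was 1.41 ± 0.209 in the control, 3.72 ± 0.634 at 12 h and 1.61 ± 0.131 at 24 h. With factors per gene the 12 h range of that last ratio was 2.02 to 6.07, and the EGF libraries still stood above every control library in both ratios to CDKN1B, where the nearest group was CCNE1 over CDKN1B at 48 h (0.76 to 1.29 against 0.488 to 0.664). The ratios are given without a test.

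**Figure D4:**
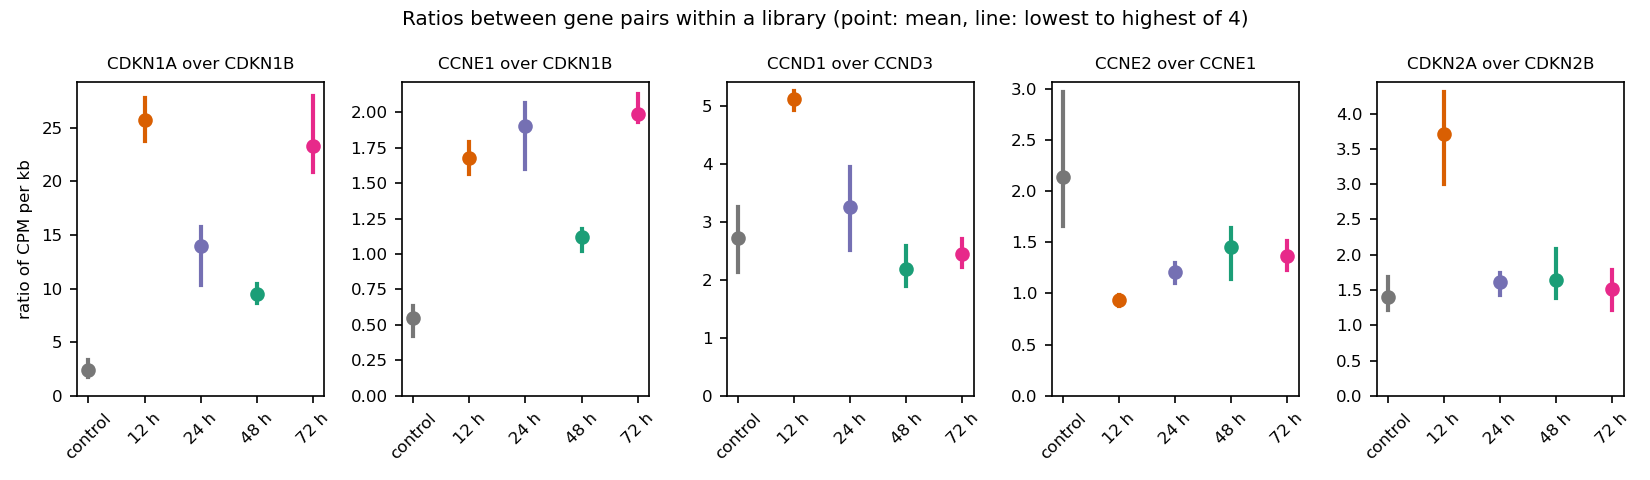
Ratio of CPM per kb between 5 pairs of the genes within a library (vertical axes, linear from 0), for the control and the 4 EGF times. Points are means of 4 libraries and lines run from the lowest to the highest. CDKN1A over CDKN1B goes from 2.37 in the control to 25.7 at 12 h and is 9.49 at 48 h.

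Across the 20 libraries the members are described by Pearson's r of log2 CPM, with libraries of the same 5 groups as points. CDKN1A varied with CCNE1 (r = 0.91), CCND3 (r = 0.90) and CCND1 (r = 0.871). CDKN2B ran against CCND1 (r = -0.83). The 13881 tested genes with a mean of at least 1 CPM were ranked by r, and the closest outside the members are given. Those most like CDKN1A were NDEL1 at 0.994, CDCP1 at 0.993 and IER3 at 0.992. CCND1 was closest to KRT17 at 0.989, FOXQ1 at 0.986 and SMS at 0.984, where KRT17 and FOXQ1 encode a basal keratin and a forkhead factor. For CCNE1 the closest were CEACAM1 at 0.988, MORF4L2 at 0.979 and KRT14 at 0.975, and KRT14 is again a basal keratin. CCND3 was nearest to AP1M1 at 0.959, DESI1 at 0.955 and NBL1 at 0.954, and CCNE2 to IKZF2 at 0.962, TRIM33 at 0.951 and GPR180 at 0.947. Of the genes that fell, CDKN2B was nearest to ARV1 at 0.975, ATP23 at 0.975 and ATG4C at 0.975, and CDKN1B to IPMK at 0.936, RBBP5 at 0.935 and SEPTIN2 at 0.935. CDKN2D, with few counts, had lower values: LRRC41 at 0.827, LIMS2 at 0.824 and CYB5R3 at 0.81.

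The genes around these regulators were read from lists chosen with earlier results of these data known. Of all tested genes, 32.9%, 29.2%, 24% and 30.6% were called higher than the control at 12, 24, 48 and 72 h, and 36.5%, 29.6%, 21.8% and 31% lower, which is the background for the counts of these lists. Of 7 genes of the G1 kinases and their activators, 6 rose and 0 fell at 12 h, 5 and 0 at 24 h, 2 and 0 at 48 h, and 5 and 0 at 72 h. CDK6, the kinase partner of D cyclins, went from 15 ± 1.36 CPM in the control to 88.7 ± 7.23 at 12 h (2.56 ± 0.11, adjusted p = 1.19e-15) and was 41.7 ± 5.76 at 48 h and 80.2 ± 4.6 at 72 h. CDK2, the partner of E cyclins, rose by 1.13 ± 0.078 at 12 h, and CDC25A, the phosphatase that activates it, by 1.42 ± 0.084. CDK4 was called at 12 h alone (0.39 ± 0.097, adjusted p = 9.76e-04), and there not under scaling by library size or upper quartiles. Under scaling by library size alone the list had 5 genes higher at 12 h, and CDK4 was called lower at 24 and 72 h. With factors per gene the list had 3 genes higher and 1 lower at 72 h. Among family genes outside the member list, 6 of 7 were tested and 4 fell at every time: CDKN2C, CDKN3, CCNA2 and CCNB1, of which CDKN3 and CCNA2 are named here after their values were seen. CCNA1, the A cyclin of germ cells, was the 1 that rose at every time, from 0.0709 ± 0.0533 CPM in the control to 3.01 ± 0.558 at 12 h (adjusted p = 1.67e-10). CDKN2C, the fourth INK4 gene, which encodes p18, went from 24.8 ± 1.4 CPM to 3.58 ± 0.546 at 12 h (-2.79 ± 0.13, adjusted p = 3.18e-15). CCND2, the third D cyclin, had 0 counts in every library. SKP2, the ubiquitin ligase subunit that marks p27 for destruction, fell at each time, by 1.12 on the log2 scale at 72 h (adjusted p = 8.29e-13). It stands in a list of 11 ubiquitin ligases and cofactors. There 3 rose and 5 fell at 12 h, 2 and 4 at 24 h, 0 and 4 at 48 h, and 1 and 6 at 72 h. In that list CKS2 also fell at each time, by 0.82 at 72 h (adjusted p = 3.85e-10). CKS1B was lower at 24 and 72 h (-0.24 and -0.67) and was not called at 12 and 48 h.

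RB1, the target of these kinases, was at 11 to 62 counts a library, or 2.27 ± 0.311 CPM in the control, and was lower at 12 h (-0.77 ± 0.21, adjusted p = 0.00265) and 24 h (-0.93 ± 0.22, adjusted p = 7.55e-04). In the list of 11 pocket protein and E2F genes, 5 rose and 3 fell at 12 h, 2 and 3 at 24 h, 0 and 4 at 48 h, and 2 and 3 at 72 h, with E2F3 higher (0.92 ± 0.099) and E2F8 lower (-0.45 ± 0.089) at 12 h. Among 19 tested transcription factors and repressors known to act on the members, 12 rose and 3 fell at 12 h, 9 and 4 at 24 h, 7 and 7 at 48 h, and 10 and 6 at 72 h. FOSL1, an AP-1 subunit at 2.78 ± 0.736 CPM in the control, rose by 6.47 ± 0.25 at 12 h, KLF6, known as an activator of CDKN1A, by 2.85 ± 0.12, and MYC, known as a repressor of CDKN1A and CDKN2B, by 1.89 ± 0.10. At 48 h, when the means of the G1 cyclins and CDKN1A were lowest among the EGF times, so were those of these 3. They were at 3.19, 0.99 and 0.43 there, all called, against 4.87, 1.65 and 0.89 at 24 h and 5.06, 1.75 and 0.54 at 72 h. All 3 were called lower at 48 h than at 24 h. FOSL1 and KLF6 were called higher at 72 h than at 48 h, and MYC was not.

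Genes of S phase and of G2 and mitosis were called lower more often than higher at each EGF time. Of the 20 listed, 4 rose and 11 fell at 12 h, 4 and 7 at 24 h, 0 and 12 at 48 h, and 1 and 15 at 72 h. The count of 7 lower at 24 h was near the 29.6% of all tested genes. Medians of the list were -0.25, -0.057, -0.22 and -0.59 on the log2 scale, against -0.054, -0.0071, 0.0099 and -0.0090 over all tested genes. TOP2A, CCNB2 and CCNB1 fell at every time, and at 72 h they were at -1.63 ± 0.080, -1.47 ± 0.072 and -1.46 ± 0.074. The genes that rose early were of DNA replication: CDC6, MCM3, MCM5 and MCM7 at 12 h, and CDC6, MCM3, MCM5 and MCM6 at 24 h. Other replication genes fell: MCM2, PCNA, RRM2 and TYMS at 12 h, and RRM2 at 24 h. These replication genes are named after their values were seen. MKI67, the proliferation marker, was 276 ± 38.6 CPM in the control, 253 ± 15.2 at 12 h and 137 ± 7.29 at 72 h, a difference called at 72 h (adjusted p = 5.45e-09) and, under scaling by library size or upper quartiles, at 12 h. At 72 h CDKN1A, CCND1, CCND3, CCNE1 and CCNE2 were all above the control, CDC6, a replication licensing gene named after its value was seen, was the 1 gene of the list that rose, and CDKN1B was below the control. CCNB1 and CCNA2 count in both the family and the S and G2/M lists. At 12 h the S and G2/M list had 1 gene higher and 15 lower under scaling by library size alone. It had 1 and 14 by upper quartiles, 1 and 9 with factors per gene, and 4 and 11 by DESeq2 size factors.

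**Figure D5:**
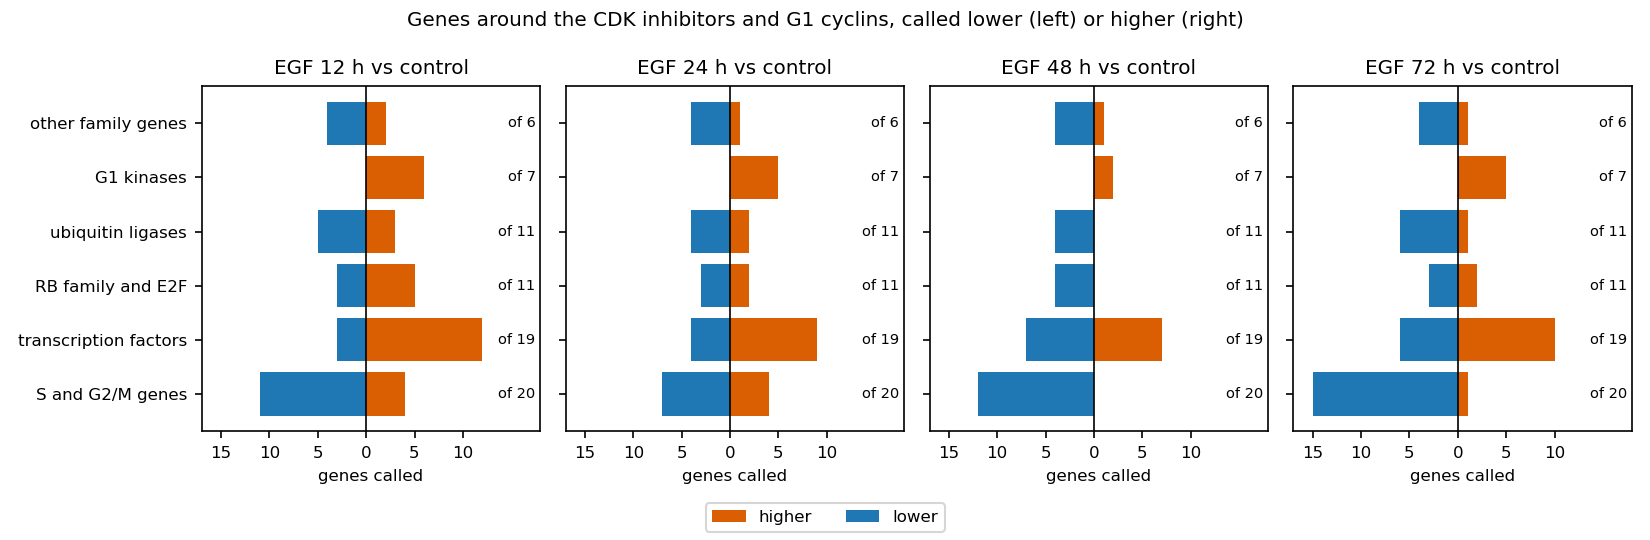
Number of genes called lower (bars to the left) or higher (bars to the right) against the control in 6 lists around the 10 genes, for the 4 EGF times, with the number tested at the right. The G1 kinases have no bar to the left at any time, and the S and G2/M genes reach 15 lower at 72 h.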

How the data were processed

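RNA was extracted from 20 cultures of MDA-MB-468 cells (4 per group) with a column kit and sequenced as Lexogen Corall mRNA libraries. The authors deposited estimated counts per gene, written as whole numbers, and normalized values read here as a score, which the study's methods credit to DESeq2 through SARTools. Per the labels the genome build was hg38, and the aligner, the counting program, its use of strand and its handling of molecular identifiers are not given in the sources used here. The same counts stand in every deposited table, so 1 table was used, and the authors' own fold changes and p-values in them were not. Counts were fitted with edgeR 4.0.16 (glmQLFit with robust dispersion and glmQLFTest, R 4.3.3), with TMM scaling, filterByExpr, 1 mean per group over all 20 libraries and no block, and Benjamini-Hochberg adjustment over 16522 genes at a threshold of 0.05. Fold changes used a prior count of 0.125, standard errors are the log2 fold change over the root of the F statistic, and 95% intervals are 1.96 standard errors wide on each side. These intervals use the normal quantile, so they can leave out 0 where the unadjusted p of the test is over 0.05. Libraries of a group differed by more than counting noise in all 30 replicate pairs, so none was merged. Alternatives were other scalings (library size, upper quartiles, DESeq2 1.42.0 size factors, and the factor per gene and library implied by the deposited scores on genes that reach 20 counts in each library), other filters on low counts, DESeq2's Wald test, a fold threshold of 1.5 (glmTreat), a replicate block, a prior count of 2, fitting only the 8 libraries of a comparison, and leaving out each library. Promoter sequences are from RefSeq on GRCh38.p14, where 7 of the 10 genes were searched. Libraries held 15611961 to 25856953 counts, and counting error weighs most on CDKN1C and CDKN2D. The script was tested on simulated data. Results for 1 further list of pathway genes are not reported here. The 10 genes, the lists and the rule for named genes were chosen with earlier results of these data known. That rule names all members, up to 3 genes per list with the largest called change and a mean of at least 1 CPM, and the 3 genes most correlated with each member called beyond 1.5-fold.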

Additional observations from a re-analysis of the deposited data

Results flagged for a closer look

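In 3 of 50 groups of 4 libraries, 1 library stood further from the rest than Dixon's critical ratio for 4 samples allows, where chance gives about 1 in 20 groups. CDKN1A at 562 CPM in EGF 72 h replicate 1 was above its group, with a ratio of 0.846. CCND3 at 57.7 CPM in EGF 12 h replicate 3 was below its group, with a ratio of 0.875. CCNE2 at 87.4 CPM in EGF 72 h replicate 2 was above its group, with a ratio of 0.872. The 3 values come from 3 different libraries, and their part in the results is covered by leaving out each library.

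The effect of EGF differed between successive times, by edgeR's quasi-likelihood test of the difference, in 20 of 30 comparisons of a member, where 53.7%, 50.2% and 35.7% of all tested genes differed in the 3 steps. From 12 to 24 h the log2 differences were -0.87 for CDKN1A (adjusted p = 9.54e-07), -0.43 for CDKN2A (adjusted p = 6.51e-04), 0.75 for CDKN2B (adjusted p = 7.6e-06), -0.50 for CDKN2D (adjusted p = 0.028), -0.76 for CCND1 (adjusted p = 7.04e-08) and 0.56 for CCNE2 (adjusted p = 6.15e-04). CDKN2B and CCNE2 were the 2 that rose in that step. From 24 to 48 h they were -0.87 for CDKN1A (adjusted p = 1.27e-06), -0.30 for CDKN1B (adjusted p = 0.0131), -0.55 for CDKN1C (adjusted p = 0.00136), 0.30 for CDKN2A (adjusted p = 0.0113), 0.31 for CDKN2B (adjusted p = 0.0203), -0.92 for CCND1 (adjusted p = 4.14e-09), -0.34 for CCND3 (adjusted p = 0.0117), -1.07 for CCNE1 (adjusted p = 1.59e-09) and -0.79 for CCNE2 (adjusted p = 1.6e-05). From 48 to 72 h they were 1.41 for CDKN1A (adjusted p = 1.98e-09), 0.81 for CCND1 (adjusted p = 5.88e-08), 0.63 for CCND3 (adjusted p = 6.62e-05), 0.93 for CCNE1 (adjusted p = 2.58e-08) and 0.83 for CCNE2 (adjusted p = 1.56e-05). The 3 steps share libraries, so a low or high group enters 2 of them.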

How the results depend on the processing

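The number of members called kept within 1.5 times its value in 62 of 70 counts under other settings and in all 56 counts without 1 library, where it ran from 8 to 9 at 12 h, 8 to 9 at 24 h, 3 to 5 at 48 h and 6 to 7 at 72 h. Testing against a 1.5-fold change left 5, 3, 1 and 4 members at 12, 24, 48 and 72 h, and 2, 3 and 3 for the steps 12 to 24, 24 to 48 and 48 to 72 h, since that test asks for a larger change. Factors per gene left 5 at 24 h, and the cause was not tested. Of the single values, 818 of 933 under other settings and 672 of 720 without 1 library kept their direction and their side of the threshold, or moved by under 1 SD. Deviations of same-numbered libraries correlated at -0.239 to 0.348 (median 0.0092), 5 of 40 over 0.1. Those of other-numbered libraries correlated at -0.322 to 0.259 (median -0.0042), 10 of 120 over 0.1. Of the 20 libraries, 8 correlated best with their own number, and whether the numbers pair the libraries was not settled. With the replicate block the members called were 9, 9, 4 and 7 at the 4 times and 6, 9 and 5 in the steps, with CDKN2A added at 24 h (-0.215).

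Library size alone moved the median of all genes by -0.283 at 12 h, -0.143 at 24 h, 0.142 from 12 to 24 h and 0.154 from 24 to 48 h, and took the share of higher calls from 47.4% to 30.2%, 49.6% to 36.3%, 51.9% to 68.6% and 51.5% to 71.8% (and from 50% to 33.8% from 48 to 72 h). Upper quartiles moved it by -0.161 at 12 h (37.2% higher) and 0.116 from 12 to 24 h (66.1%), and factors per gene by 0.119 (55.3%) and -0.115 (39.2%). Small differences changed sign, and the causes were not tested. With library size alone these were CDKN2A at 12 h (-0.0679), CCNE2 at 12 h (-0.171), CDKN1C and CCND3 from 12 to 24 h (0.122 and 0.0469), CDKN2B from 48 to 72 h (-0.0852), CDKN2A at 48 against 12 h (0.17), and CDKN1B and CDKN2D at 72 against 12 h (0.0128 and 0.0616). With upper quartiles they were CCNE2 at 12 h (-0.0475), CDKN1C and CCND3 from 12 to 24 h (0.0959 and 0.0218), CDKN2B from 48 to 72 h (-0.0337) and CDKN2A at 48 against 12 h (0.057). With factors per gene they were CDKN2B and CCNE2 at 48 h (0.115 and 0.0489), CDKN1B from 12 to 24 h (-0.177), CDKN2B from 48 to 72 h (-0.193) and CCND1 at 72 against 24 h (0.109). DESeq2 size factors and DESeq2's Wald test turned CDKN2A at 72 h (0.0163 and 0.0147) and CDKN1B from 12 to 24 h (-0.0111 and -0.0138). At least 10 counts in every library turned CDKN2A at 72 h (0.0496) and CDKN1C from 12 to 24 h (0.0209), no filter CDKN1B from 12 to 24 h (-0.0298), and the 8 libraries alone CDKN2A at 72 h (0.00264). Without 1 library, values ran from -0.218 to 0.00946 for CCNE2 at 48 h, -0.0446 to 0.0522 for CDKN2A at 72 h, -0.0277 to 0.0502 for CDKN1B and -0.114 to 0.0825 for CDKN1C from 12 to 24 h, -0.073 to 0.0587 for CDKN2B and -0.00336 to 0.222 for CDKN2D from 48 to 72 h, and -0.0305 to 0.109 for CCNE2 at 72 against 24 h. Of all of these, only CDKN2A at 12 h was a called value. CDKN1C and CDKN2D, at 44 to 147 counts a library, are the members whose depth limits the precision.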
